A study of Homo sapiens with 12 samples.

Results

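The epidermal differentiation complex is a run of genes on chromosome 1 for the proteins of the outermost layer of skin and other stratified epithelia, and it holds most human S100 genes. It was described here by the H3K27ac peaks of 8 untreated lists that overlap chr1:151950000-153620000 (hg19), a window of 1670 kb. The window held 187 of the 224362 peaks of these lists. Overlapping peaks of different libraries (minimum overlap 1 bp) were merged into regions, and 69 of the 70648 regions lay in the window. Peaks and regions entered by their position.

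The series measured acetylation of lysine 27 of histone H3 (H3K27ac), a mark found at promoters and enhancers in use, by sequencing of immunoprecipitated chromatin. H358 and H2009 are lung adenocarcinoma lines with 2 libraries each, HCC95 is a lung squamous carcinoma line with 1 library, and Ishikawa is an endometrial carcinoma line with 2 libraries. BICR31 has 1 library. The series' design text places it among head and neck squamous lines, and this was followed, whereas its own sample label says lung adenocarcinoma. All were cancer lines cultured in the same serum-supplemented medium, precipitated with the same antibody and labelled as not treated, and no genotype or engineered allele was given. Each line is one established culture and stands for no range of tumours. Nothing in the labels ties the replicates to separate cultures. A p-value here therefore reflects only how far these libraries differ, which may be a technical spread. The lists came in different forms. Those of H358 and H2009 were narrowPeak, those of HCC95 and BICR31 broadPeak and those of Ishikawa a 5-column form, so the type of line and the way peaks were called cannot be told apart.

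The 8 lists ran from 23400 to 42148 peaks, the longest being BICR31, and median peak widths ran from 347 to 1507 bp. The lists give no read numbers, so depth is unknown. The labels were checked by counting peaks within 5 kb of marker genes. TP63, the master transcription factor of squamous epithelium, had 8 peaks in HCC95, 7 in BICR31, 7 in each Ishikawa library and 2 to 3 in each H358 and H2009 library, so it did not set the squamous lines apart from Ishikawa. The basal keratin gene KRT14 had 2 peaks in HCC95, 1 in BICR31 and 1 in H358 replicate 1, and 0 in the other 5 libraries, and KRT5, its partner, had 2 in HCC95, 1 in BICR31 and 1 in Ishikawa replicate 1, and 0 in the other 5. NKX2-1, a lung lineage factor, had 2 and 3 peaks in H358, 1 in BICR31 and 0 in both H2009 libraries, and the surfactant gene SFTPB had 0 in every library. Of the endometrial markers, the transcription factor gene PAX8 had 1 peak in each Ishikawa library and 1 to 4 in the others. The estrogen receptor gene ESR1 had 7 and 10 in Ishikawa, 7 in BICR31, 3 to 6 in H358 and H2009 and 0 in HCC95. Peak numbers at these genes thus did not set Ishikawa apart. Bases covered by peaks were highest in Ishikawa at both, with 18928 and 20457 at ESR1 and 6879 and 5096 at PAX8. BICR31 came next, with 7860 and 4831. The Ishikawa lists also had the widest median peaks of the 8 lists.

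The complex is known for a fixed order of gene families. The fused-type S100 genes such as FLG and TCHH encode large structural proteins. The late cornified envelope (LCE) genes, the small proline-rich (SPRR) genes, IVL and LOR encode proteins that transglutaminases cross-link into the cornified envelope when keratinocytes mature. S100 proteins are small calcium-binding proteins, of which some are restricted to stratified epithelia or myeloid cells and others are widely expressed. In keratinocytes many of these genes are regulated by AP-1, a factor that binds the letters TGANTCA.

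Promoter sequences, each from 250 bases before to 50 after the gene start, are shown for genes on which the results below turn. They come from RefSeq with build GRCh38.p14, which is not the build of the peaks, and none of their positions was compared with a peak. SPRR1B at chr1:153030953-153031252 (plus strand) and S100A14 at chr1:153616276-153616575 (minus strand) had peaks in both squamous lines and no other. S100A2 at chr1:153565795-153566094 (minus strand) and S100A6 at chr1:153535942-153536241 (minus strand) had peaks in every library. IVL at chr1:152908296-152908595 (plus strand) was added after its values were seen, as the best known gene of the envelope. Capitals mark matches to TGANTCA and to the TATA box letters TATAAA, searched on both strands.
SPRR1B: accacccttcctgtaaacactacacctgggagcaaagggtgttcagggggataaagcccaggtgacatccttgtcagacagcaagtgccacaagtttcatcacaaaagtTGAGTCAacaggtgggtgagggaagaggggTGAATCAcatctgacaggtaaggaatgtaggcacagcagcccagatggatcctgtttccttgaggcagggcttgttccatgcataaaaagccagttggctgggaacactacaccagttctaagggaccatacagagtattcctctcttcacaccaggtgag
IVL: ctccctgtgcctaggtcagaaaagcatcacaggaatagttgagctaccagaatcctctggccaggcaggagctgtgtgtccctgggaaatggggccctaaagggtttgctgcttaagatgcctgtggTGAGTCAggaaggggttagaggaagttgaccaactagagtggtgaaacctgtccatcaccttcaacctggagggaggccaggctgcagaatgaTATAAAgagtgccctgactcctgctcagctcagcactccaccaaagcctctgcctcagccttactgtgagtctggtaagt
S100A14: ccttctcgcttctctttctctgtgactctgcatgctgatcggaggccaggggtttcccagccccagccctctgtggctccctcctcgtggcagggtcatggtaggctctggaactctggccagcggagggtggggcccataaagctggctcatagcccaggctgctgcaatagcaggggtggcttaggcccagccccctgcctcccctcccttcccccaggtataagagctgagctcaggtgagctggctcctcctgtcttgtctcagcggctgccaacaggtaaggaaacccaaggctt
S100A2: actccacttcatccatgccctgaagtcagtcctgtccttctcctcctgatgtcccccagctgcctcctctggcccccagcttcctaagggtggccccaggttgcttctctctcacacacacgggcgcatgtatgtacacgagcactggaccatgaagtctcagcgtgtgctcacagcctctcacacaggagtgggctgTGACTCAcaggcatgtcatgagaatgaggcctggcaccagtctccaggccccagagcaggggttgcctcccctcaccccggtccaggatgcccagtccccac
S100A6: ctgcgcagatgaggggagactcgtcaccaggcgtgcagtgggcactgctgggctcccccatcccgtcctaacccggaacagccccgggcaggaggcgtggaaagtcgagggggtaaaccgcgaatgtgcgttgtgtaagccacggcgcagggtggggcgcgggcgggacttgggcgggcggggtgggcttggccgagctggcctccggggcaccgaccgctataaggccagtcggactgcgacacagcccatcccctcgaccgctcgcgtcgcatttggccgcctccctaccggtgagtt
SPRR1B held TGANTCA at -141 and -111, counted as the first base of the match relative to the gene start. IVL held it at -123 and TATAAA at -30, and S100A2 held TGANTCA at -52. S100A14 and S100A6 held neither word in this window. S100A6 held the GC box letters GGGCGG at -90, -79 and -75.

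Of all 35116 RefSeq promoters of this length, 7.71% held TGANTCA and 11.5% TATAAA, and in no promoter of the complex did matches of the 2 words share a base. In the complex, TGANTCA was found in 7 of 10 promoters of the SPRR and IVL stretch and 6 of 7 of the fused-type stretch. It was found in 0 of 18 of the LCE stretch, 3 of 3 of the LOR stretch and 3 of 16 of the S100 cluster. The 18 of the LCE stretch include KPRP, and LCE1B had no promoter sequence. Of the 13 promoters whose gene start had a peak in HCC95, BICR31 or both and no other line, 8 held TGANTCA and 9 TATAAA. Both counts include TCHH, whose call depends on the start used, as given below. Of the 8 promoters whose start had a peak in every library, 1 held TGANTCA and 0 held TATAAA. By median the latter promoters were richer in CpG, with 20.5 CpG dinucleotides and 62.7% GC against 2 and 50.7% for the former. The groups overlapped, as S100A1, S100A2 and S100A16 of the latter held 6, 5 and 3, and S100A9 of the former held 5. S100A13 and CHTOP of the latter share a region. Of 33 promoters with a peak in no library, 9 held TGANTCA and 18 TATAAA, with medians of 2 CpG dinucleotides and 52.3% GC. Low CpG was thus not particular to starts with a peak in the squamous lines only. Over all RefSeq promoters of this length the medians were 14 and 58.7%. The words found are matches of letters and not sites of binding.

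H3K27ac covered both ends of the complex in every line, while the middle carried peaks almost only in the squamous lines. H358 had 15 and 19 peaks in the window, H2009 23 and 23, HCC95 26, BICR31 56 and Ishikawa 12 and 13. Called bases, the bases covered by peaks, were 7580 and 9453 in H358, 9997 and 11434 in H2009, 27077 in HCC95, 58265 in BICR31 and 33084 and 26710 in Ishikawa. Peaks of the broadPeak and 5-column lists were wider throughout, so called bases were also taken as a percent of all called bases of the same list. By that measure BICR31 had 0.143%, HCC95 0.126%, H2009 0.0921% and 0.0999%, Ishikawa 0.0799% and 0.0823%, and H358 0.0644% and 0.0785%. The squamous lines lay above all other libraries, and both H358 libraries lay below the rest.

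**Figure D1:**
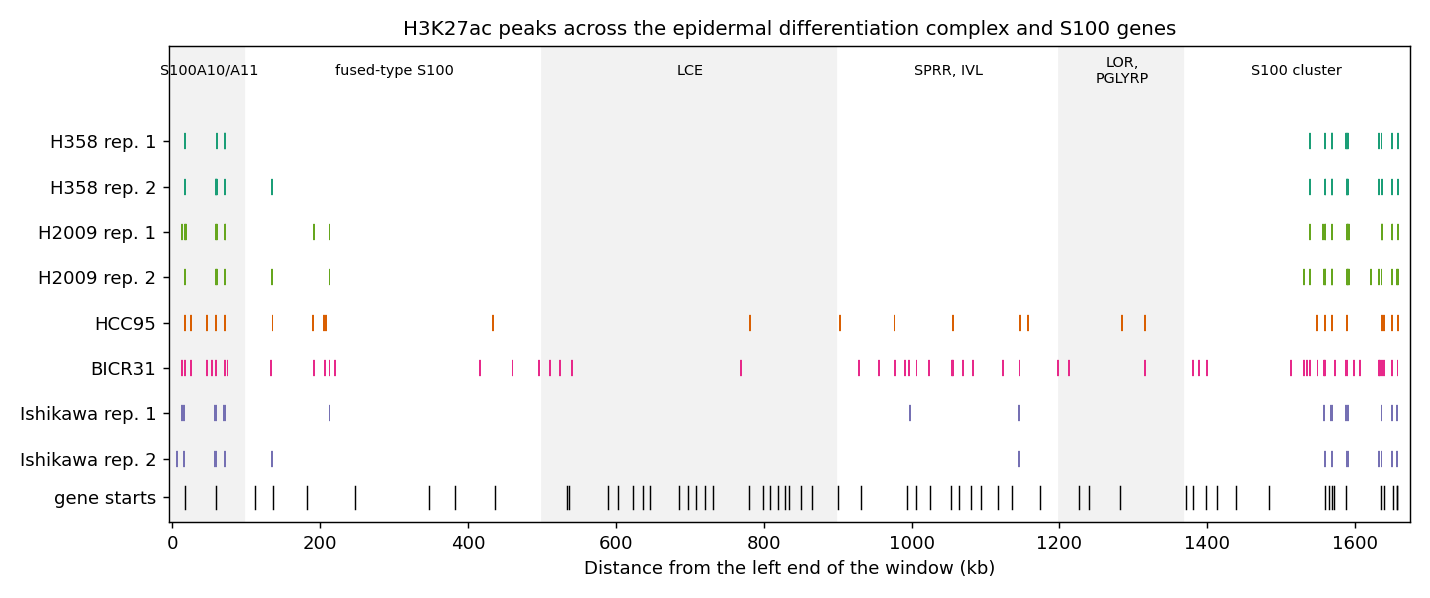
Peaks of the 8 libraries along the window, with distance in kb from its start on the horizontal axis and 1 row per library. Bars are called peaks, and the H358 and H2009 rows are empty between the fused-type stretch and the S100 cluster.

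The 2 squamous lines averaged 0.135% of called bases in the window and the other 3 lines 0.0829%, a difference of 0.0521 percentage points (exact two-sided permutation test over lines, p = 0.2, the smallest that 10 splits allow). The difference lay outside the S100 cluster. Within the cluster the sign was opposite, at -0.00776 points (exact permutation p = 0.4), and over the rest of the window it was 0.0598 points (exact permutation p = 0.2). In the higher-ranked 50% of each list the difference over the whole window was 0.00433 points (exact permutation p = 0.8) and was no longer the most extreme split.

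H358 had fewer called bases than H2009 in the window, 8517 ± 1324 against 10716 ± 1016 (SD, n = 2 each). The 2 lines did not overlap, but the difference of -2199 bases could not pass the threshold (exact two-sided permutation p = 0.333, the smallest that 6 splits allow). Both lists are narrowPeak.

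**Figure D2:**
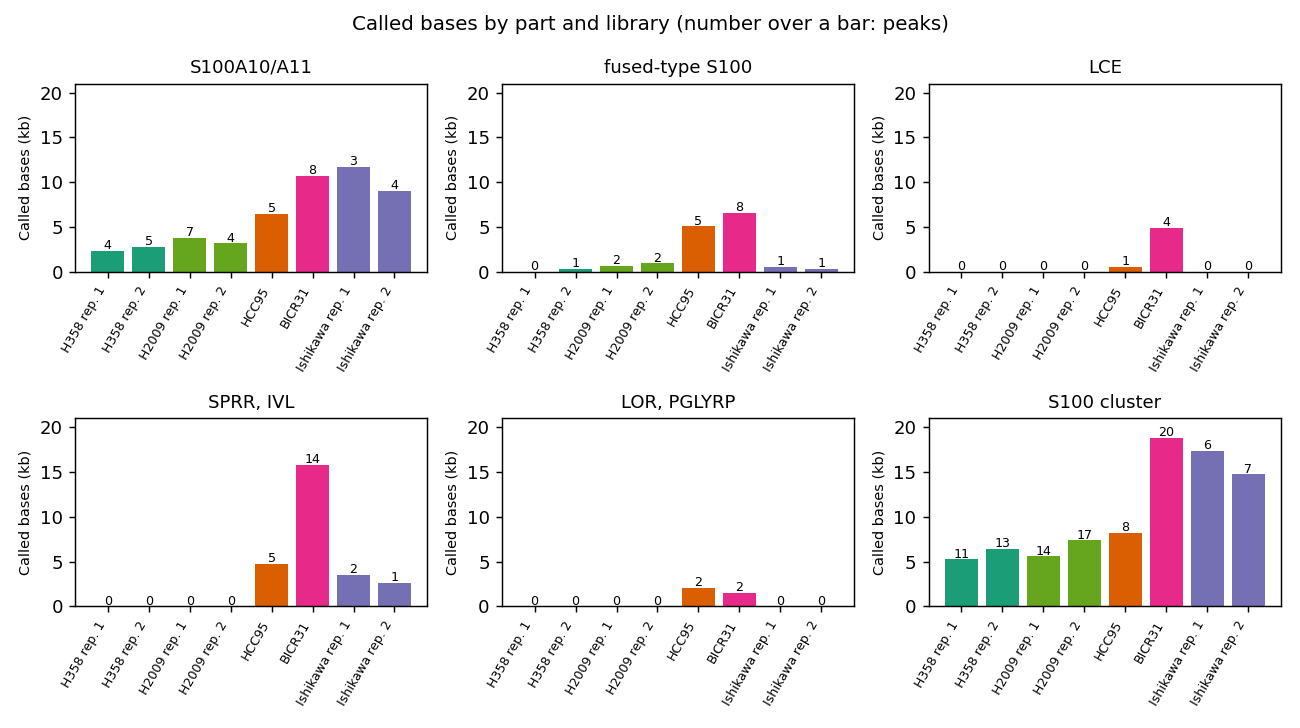
Called bases of each library by stretch of the complex. Bases between the LCE genes and LOR appear in HCC95, BICR31 and Ishikawa and are at 0 in the 4 H358 and H2009 libraries.

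Gene starts were named where a peak lay within 2 kb. Of the 60 genes, 37 had a peak in no library, 23 in at least 1, 12 in at least 2 and 8 in every library. The 23 include TCHH, whose call depends on the start used, as given below. The share of all gene starts with such a peak was not computed, so counts of gene starts here and below cannot be called high or low. Every gene with a peak in any library had one in HCC95 or BICR31, and the other 3 lines had peaks at 9 starts (H358 or H2009) and 10 starts (Ishikawa).

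The left end of the complex, between 151950000 and 152050000, holds S100A10 and S100A11. S100A10, a partner of annexin A2, had a region at 151961318 to 151967129 with called bases of 631 and 866 in H358, 1456 and 923 in H2009, 822 in HCC95, 2413 in BICR31 and 5202 and 2922 in Ishikawa. S100A11, a widely expressed S100 gene, had one at 152006543 to 152010181 with 605 and 1203 bases in H358, 924 and 1097 in H2009, 1906 in HCC95, 2512 in BICR31 and 3639 and 3329 in Ishikawa. Bases were highest in both Ishikawa libraries at both genes, and the Ishikawa lists also had the widest median peaks of the 8 lists. The region at 152018873 to 152021723 was also shared by every library and was near no gene start of the list. Between these lay 2 regions with peaks in both squamous lines alone, at 151973475 to 151974556 (292 bases in HCC95, 1082 in BICR31) and at 151995641 to 151997837 (2197 and 1917 bases).

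The fused-type S100 stretch, 152050000 to 152450000, holds TCHH, FLG and their relatives. It had 5 peaks in HCC95 (5053 bases), 8 in BICR31 (6567), 2 in each H2009 library (619 and 917), 0 and 1 in H358 (336 bases in the latter) and 1 in each Ishikawa library (499 and 311). Only TCHH, the trichohyalin gene of the hair follicle, had a peak within 2 kb of the start used, in HCC95. The other 6 fused-type genes, FLG among them, had none in any library. The TCHH call is uncertain. Its peak had 446 bases within 2 kb of the start used, which departed by 1364 bp from the common spacing to RefSeq. With a start shifted that far away from the peak, the peak would lie beyond 2 kb. Peaks of the H358, H2009 and Ishikawa lists lay in the left part of the stretch alone, up to 152162045. None of its 12 regions was shared by every library. The region with most libraries, 152161335 to 152162045, had peaks in both H2009 libraries (378 and 666 bases), in BICR31 (392) and in Ishikawa replicate 1 (499).

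The LCE stretch, 152450000 to 152850000, was nearly bare. BICR31 had 4 peaks (4859 bases), HCC95 1 (499 bases) and the other 6 libraries 0. None of the 18 LCE genes had a peak within 2 kb of its start in any library. No peak lay between 152490547 and 152717727 in any library. The widest was a BICR31 peak at 152473344 to 152476162 (2819 bases, fold enrichment 3.01), and the HCC95 peak at 152730258 to 152730756 was near KPRP, a keratinocyte proline-rich protein gene. Members of an LCE subgroup, like the SPRR2 genes, are close copies of each other. The sources used here do not say how reads that match several copies were treated, so the absence of a peak at a single copy is uncertain.

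The SPRR stretch, 152850000 to 153150000, was the most densely marked of the middle. BICR31 had 14 peaks there (15817 bases), HCC95 5 (4744 bases), Ishikawa 2 and 1 (3518 and 2613 bases) and H358 and H2009 0. BICR31 had a peak at the start of 5 of 10 SPRR genes, namely SPRR4, SPRR1A, SPRR3, SPRR1B and SPRR2A, and HCC95 at 1, SPRR1B. The 5 SPRR genes with no peak were all SPRR2 genes. IVL, the involucrin gene, had a BICR31 peak of 2523 bases at 152878135 to 152880657 (fold enrichment 3.03) and none elsewhere. SPRR1B, whose promoter carries 2 TGANTCA words above, had the region common to both squamous lines at 153004520 to 153005978. It had 1144 bases and fold enrichment 3.57 in HCC95 and 875 bases and 2.92 in BICR31. Both peaks ranked low in their own lists by −log10 p, at percentile 22.8 in HCC95 and 7.26 in BICR31. BICR31 alone had a further peak near SPRR1B, at 153003198 to 153003439, with 242 bases and percentile 50.9.

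The strongest BICR31 peaks of the stretch lay away from gene starts. One at 153072177 to 153073588 had fold enrichment 4.59 and ranked at percentile 92.3 of its own list by −log10 p, and one at 152926186 to 152927541 had 4.97 and percentile 87.0. An HCC95 peak at 152925575 to 152926142 ended just before the latter and did not overlap it, so the 2 were counted as regions of 1 line each. A single region of the stretch was shared with Ishikawa in both replicates, at 153093892 to 153096712, with 815 bases in HCC95, 1822 in BICR31 and 2821 and 2613 in Ishikawa. It ranked at percentile 95.8 and 84.9 in the Ishikawa lists by score, and at 82.1 in BICR31 and 37.7 in HCC95.

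The LOR stretch, 153150000 to 153320000, had 2 peaks each in HCC95 (2097 bases) and BICR31 (1468 bases) and 0 in the other 6 libraries. LOR encodes loricrin, a main protein of the cornified envelope. Its start had an HCC95 peak at 153233856 to 153234349 (fold enrichment 4.80, percentile 77.6) and none in BICR31. The region at 153264990 to 153266592 had 1603 bases in HCC95 and 933 in BICR31.

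From the LCE genes to LOR the 4 H358 and H2009 libraries thus had 0 peaks. Their longest stretches without a peak were 1467 and 1404 kb in H358 and 1326 and 1318 kb in H2009, against 785 and 1010 kb in Ishikawa, 347 kb in HCC95 and 227 kb in BICR31. This middle took 27.1% of the window's called bases in HCC95, 38.0% in BICR31 and 10.6% and 9.78% in Ishikawa. As a percent of all called bases of the list it averaged 0.0444% in the squamous lines and 0.00276% in the other 3 (exact two-sided permutation p = 0.2, the smallest possible). The squamous lists are broadPeak and that of BICR31 is the longest, and the part of file form and list length in this difference was not tested beyond the equal-length lists given below.

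The S100 cluster, 153320000 to 153620000, was marked in every library. It had 11 and 13 peaks in H358, 14 and 17 in H2009, 8 in HCC95, 20 in BICR31 and 6 and 7 in Ishikawa. Called bases were 5237 and 6384 in H358, 5585 and 7370 in H2009, 8202 in HCC95, 18858 in BICR31 and 17375 and 14731 in Ishikawa. Of the 14 S100 genes of the cluster, 5 had a peak at the start in every library (S100A6, S100A2, S100A16, S100A1 and S100A13) and 4 in none (S100A8, S100A7A, S100A7 and S100A5). S100A7 and S100A7A are close copies, with the same uncertainty as the LCE genes.

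**Figure D3:**
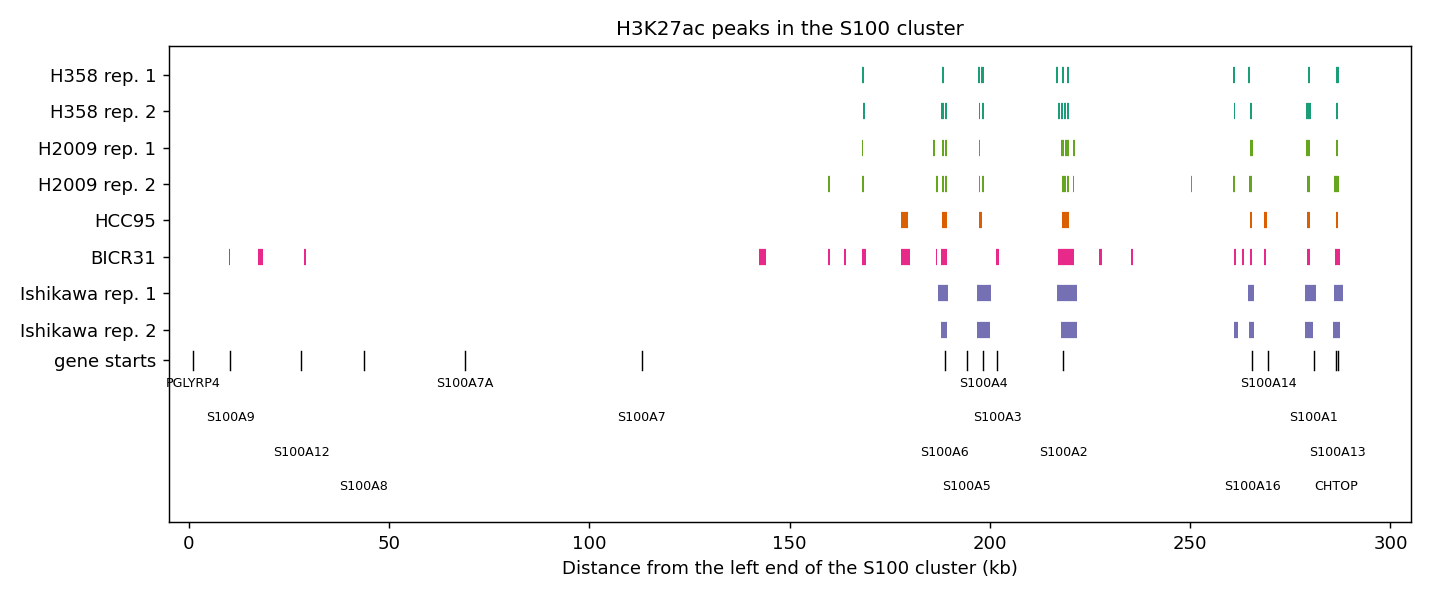
Peaks of the 8 libraries in the S100 cluster, with distance in kb from its start on the horizontal axis and 1 row per library. The left part has peaks in BICR31 alone, and the right part has peaks in every row.

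The left part of the cluster holds the genes of the calprotectin subunits S100A8 and S100A9, S100A12 and the psoriasins. Of these only S100A9 and S100A12 had a peak at the start, in BICR31 alone. S100A9 had a peak of 338 bases at 153329939 to 153330276 (fold enrichment 4.66) and S100A12 one of 211 bases at 153348768 to 153348978 (3.36). Both genes are best known from myeloid cells.

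S100A2, a p63 target in squamous epithelium, was not limited to the squamous lines. Its region at 153536592 to 153541777 had 1110 and 1533 bases in H358, 1902 and 1798 in H2009, 1603 in HCC95, 4173 in BICR31 and 5138 and 4058 in Ishikawa. S100A6, the calcyclin gene, had 461 and 933 bases in H358, 729 and 756 in H2009, 1380 in HCC95, 1489 in BICR31 and 2372 and 1501 in Ishikawa at 153507132 to 153509503. S100A13, a widely expressed S100 gene, shared its region at 153605692 to 153608071 with CHTOP, a gene for a nuclear chromatin protein. This region held the highest rank of the window in every library but Ishikawa replicate 1, where the region at 153093892 ranked higher. It stood at percentile 99.8 or above in H358, H2009 and BICR31, 92.2 and 91.5 in Ishikawa and 87.7 in HCC95.

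S100A14 had peaks in the squamous lines alone, while S100A4 lacked a peak in BICR31 alone. S100A14, an epithelial S100 gene, had 685 bases in HCC95 and 355 in BICR31 at 153588414 to 153589125 and no peak in the other lines. S100A4, known for cell motility, had 3472 and 3187 bases in Ishikawa, 1054 and 794 in H358, 276 and 606 in H2009 and 851 in HCC95 at 153516719 to 153520190, and no peak in BICR31, the longest list. BICR31 instead had a peak of 869 bases at 153521400 to 153522268, near S100A3. To the left of S100A6 along the chromosome, 153497791 to 153500105 was marked in both squamous lines alone (1864 and 2191 bases). The neighbouring region 153487993 to 153488957 was marked in H358 (510 and 704), H2009 (437 and 380) and BICR31 (797), but not in HCC95 or Ishikawa.

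Sharing was counted over regions. Of the 69 regions, 8 had a peak in every library, or 11.6%, beside 12.1% of all regions, and 5 of these lay in the S100 cluster and 3 at the left end. Regions with a peak in HCC95, BICR31 or both and in no other line numbered 47, or 68.1%, beside 31.7% of all regions. Of these, 33 were BICR31 alone (47.8% of the window, 21.9% of all), 8 HCC95 alone (11.6%, 6.2%) and 6 both lines (8.70%, 3.56%). No region was specific to H358, H2009, Ishikawa, or the pair of H358 and H2009, beside 1.32%, 1.27%, 5.11% and 0.497% of all regions. A further 11 regions (15.9%, beside 38.7% of all) had a peak in only 1 of the 2 libraries of some line. The last 3 regions were 1 each of HCC95, BICR31 and Ishikawa (0.637% of all regions were of that set), of H358, H2009 and BICR31 (0.831%), and of every library but BICR31 (0.282%), the last being the S100A4 region.

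By line, 19 of the 69 regions (27.5%) had a peak in H358 or H2009, beside 53.7% of all regions, and 15 (21.7%) had one in Ishikawa, beside 37.6%. BICR31 had a peak in 55 (79.7%, beside 59.2%) and HCC95 in 26 (37.7%, beside 33%). Regions with a peak in both squamous lines, whatever the other lines had, were 16 (23.2%), near the 24.3% of all regions.

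**Figure D4:**
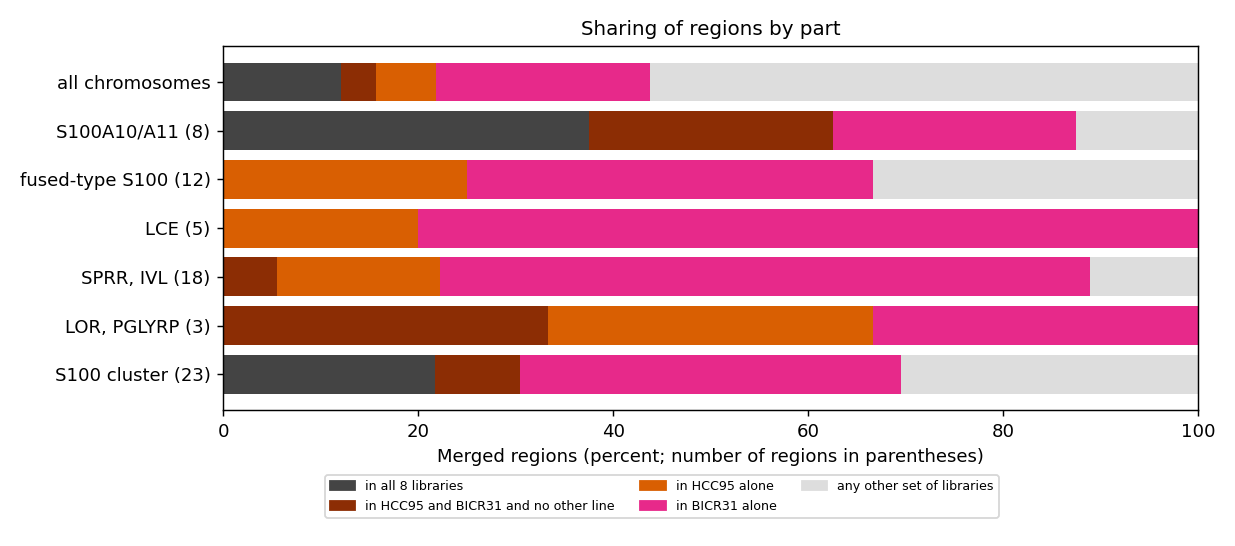
Percent of the regions in each stretch of the complex by the set of lines with a peak, with region numbers in parentheses and a bar for all chromosomes. Regions of BICR31 alone, HCC95 alone or both make up most of the middle, and regions of every library lie at the left end and in the S100 cluster.

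From the LCE genes to LOR, 24 of 26 regions (92.3%, beside 31.7% of all) were of HCC95, BICR31 or both and no other line. The others were the region shared with Ishikawa and 1 found in Ishikawa replicate 1 only. Of the 24, 17 were of BICR31 alone, 5 of HCC95 alone and 2 of both lines. Regions of this middle with a peak in both squamous lines, whatever the other lines had, were 3 of 26 (11.5%, beside 24.3% of all). In the S100 cluster, regions of HCC95, BICR31 or both and no other line were 11 of 23 (47.8%). With lists cut to the same length of 23400 peaks, 14 of 16 regions of the middle (87.5%) were squamous alone, beside 22.9% of all regions. Of these 14, 7 were of BICR31 alone, 6 of HCC95 alone and 1 of both. In the higher-ranked 50% of each list they were 7 of 8 (87.5%), beside 30% of all regions. Most of these 7 came from 1 library, with 5 of BICR31 alone, 1 of HCC95 alone and 1 of both. HCC95 there kept 0 peaks in the LCE and SPRR stretches and 2 in the LOR stretch. These settings over all regions were chosen after the counts had been seen. Over the whole window, such regions were 23 of 43 with lists of equal length (53.5%, beside 22.9% of all regions) and 14 of 37 without BICR31. The share of all regions without BICR31 was not computed, so the latter count cannot be called high or low.

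Both squamous lines had peaks in every stretch, and they shared most HCC95 peaks but the smaller share of BICR31 peaks. Of 26 HCC95 peaks in the window, 16 overlapped a BICR31 peak (61.5%, beside 72.9% of its whole list), and of 56 BICR31 peaks 16 overlapped an HCC95 peak (28.6%, beside 40.8%). In the middle these were 3 of 8 and 3 of 20.

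Peaks found in the squamous lines alone ranked low in BICR31. By −log10 p, its 8 regions shared by every library had a median percentile of 82.8 in its list, and its 39 squamous-only regions 28.5, of which 10 reached 50. In HCC95 the medians were 39.5 for the 8 shared regions and 30.1 for 14 squamous-only regions, of which 4 reached 50. Fold enrichment did not follow this order, with medians of 3.24 and 3.47 in BICR31 and 3.20 and 3.27 in HCC95.

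**Figure D5:**
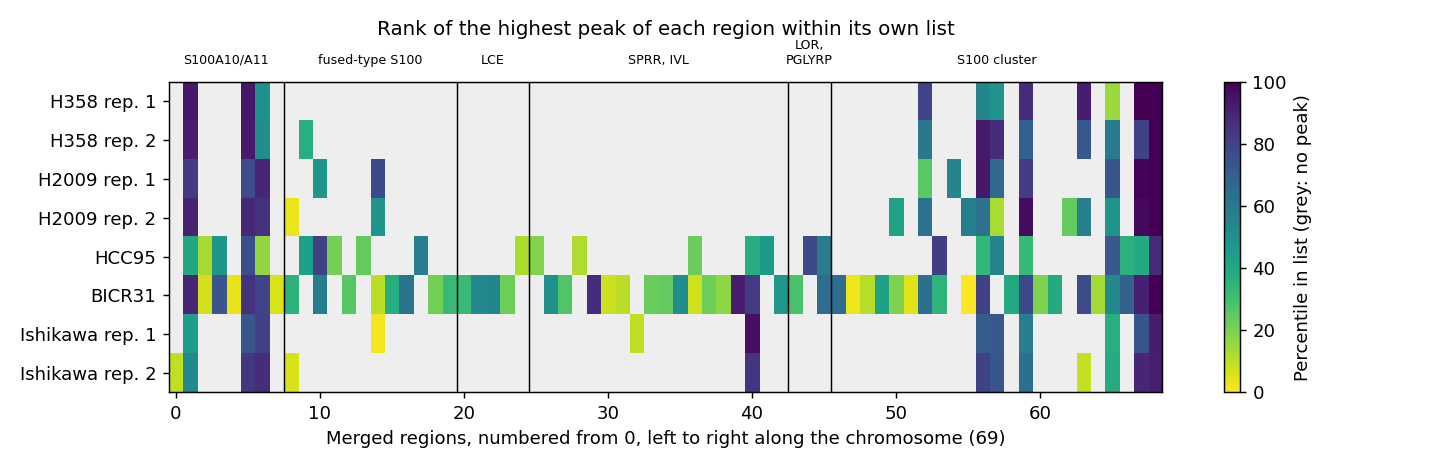
Percentile of each region's highest peak within its own list for each library, with regions numbered from 0 in order along the chromosome. The middle of the complex is filled in BICR31 and HCC95, mostly at low percentiles, and the right end is filled in every library.

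Libraries of the same line agreed more on average than libraries of different lines, but not in H358. The base-pair Jaccard index, the bases called in both lists divided by those called in either, was 0.421 in H358, 0.530 in H2009 and 0.716 in Ishikawa between replicates. Between lines it ran from 0.0894 to 0.498. The means were 0.555 and 0.254, and the difference of 0.302 was the highest of 420 placements (exact one-sided permutation p = 0.00238, the smallest possible). Replicates share a file form and most pairs of different lines do not, so line and file form cannot be told apart in this difference. Among the narrowPeak lists alone, H358 with H2009 averaged 0.454 (0.398 to 0.498), so that the replicates of H358, at 0.421, lay below this mean and below 3 of its 4 pairs (0.446, 0.475 and 0.498). There the difference was 0.0212 (exact permutation p = 0.333, the smallest that 3 assignments allow). HCC95 with BICR31 had 0.237, within the range of the other pairs of lines.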

How the data were processed

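H3K27ac peaks of 8 untreated libraries of 5 cell lines were used. Reads were aligned with BWA to hg19, per the submitters' processing notes. The sources used here give no version, control or pooling, and lists were treated as called per sample. In the narrowPeak and broadPeak lists the authors deposited per peak a fold enrichment ratio, −log10 p and q values and a score. The Ishikawa lists held only a deposited score. A summit offset, of an other kind, was deposited in the narrowPeak lists and left unused. These are the authors' values and served only to describe or rank peaks within a list.

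Peaks on chromosomes 1 to 22 and X were merged with 1 bp overlap, which left out 531 peaks on other sequences. A region was assigned to a line or set of lines when every library of those lines and no other library had a peak. Stretches took peaks by their midpoint. Percentiles rank a peak within its list by −log10 p, or by score in Ishikawa. Tests were exact permutations with a threshold of 0.05 (Python 3.11.15, pandas 2.3.3, numpy 2.4.6, matplotlib 3.10.9). The merging, the classes of regions and the Jaccard index were checked on simulated lists, and the permutation tests were not. No read counts were given, so depth and the precision it gives are unknown.

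No hg19 annotation was used. The hg19 gene starts and marker gene positions were written from general knowledge. The starts of 61 genes of the window were compared by order and spacing with RefSeq GRCh38.p14. Of these 60 were kept, 58 lying within 1 kb and 50 within 100 bp of the common spacing. The largest departure of a kept start was 1364 bp, at TCHH. They served only to name genes within 2 kb of a peak. A promoter sequence was found for 57 of the 61. Named genes are those with a peak within 2 kb of the start in at least 2 libraries, with other genes described by family. Genes named with a peak in 1 library (IVL, LOR, TCHH, KPRP, S100A9, S100A12, SPRR4, SPRR1A, SPRR3 and SPRR2A) and the strongest BICR31 peaks were chosen after their values were seen. The window, its stretches, the gene lists and the settings were chosen with earlier results of these data known. The alternatives were the list threshold, list length, overlap, joining of peaks, distance to a start, window and leaving out libraries. The 4 further H2009 libraries entered no test and are only described at the end, beside the untreated H2009 lists.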

Additional observations from a re-analysis of the deposited data

How the results depend on the processing

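The agreement of libraries stayed positive and past the threshold under all 12 alternatives run (exact permutation p 0.00238 to 0.0286). Line and file form could not be told apart under any of them. The squamous difference and H358 minus H2009 could not pass the threshold under any setting, so only their sign and size are compared. The former kept its sign in 11 of 12 alternatives, falling from 0.0521 to 0.00433 in the higher-ranked 50%, and the latter in 10 of 10. Regions of HCC95, BICR31 or both and no other line numbered 47 of 69 before these changes (68.1%, beside 31.7% of all regions). They numbered 14 of 29 in the higher-ranked 50% of each list (48.3%, beside 30%) and 23 of 43 with lists of equal length (53.5%, beside 22.9%). Without BICR31 they numbered 14 of 37, with no share of all regions computed for that setting, and in the S100 cluster alone 11 of 23. Regions of both squamous lines alone numbered 2 of 29 in the higher-ranked 50% (6.90%, beside 2.72%). They numbered 3 of 43 at equal length (6.98%, beside 2.56%) and 2 of 23 in the S100 cluster, against 6 of 69 (8.70%, beside 3.56%). Regions of every library numbered 2 of 29 in the higher-ranked 50% (6.90%, beside 11.4%), against 8 of 69 (11.6%, beside 12.1%). They numbered 0 of 69 when peaks had to cover 50% of the region, 5 of 23 in the S100 cluster and 3 of 46 outside it. The squamous minus other difference reversed to -0.00776 in the S100 cluster alone. The cause of these shifts was not tested, apart from fewer regions entering under stricter lists or shorter windows. Leaving out 1 replicate gave 0.214 to 0.382 for the agreement of libraries, 0.0497 to 0.0544 for the squamous difference and -3136 to -1263 bases for H358 minus H2009.

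With the replicate number as a block, H358 minus H2009 was -2199 bases with an exact sign-flip p = 0.5, and 0 calls passed in either fit or with crossed numbers, which were added after seeing the data. The lines share only a number: deviations of same-numbered libraries correlated at -0.115 for H358 with H2009, -0.407 for H358 with Ishikawa and 0.418 for H2009 with Ishikawa over 69 regions. Peaks under the authors' thresholds cannot be seen, and an absent peak does not show absent acetylation.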

Other observations

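The 4 short H2009 lists held 1960 peaks in the library labelled Empty, 3250 in Control, 2315 in e3KRAB1 and 1375 in e3KRAB2. Empty had 5 peaks in the window, Control 9, e3KRAB1 5 and the library labelled e3KRAB2, whose peak names carry the tag Ctrl2, 4. Each of these peaks overlapped a peak of both untreated H2009 replicates. They lay at the left end with S100A10 and S100A11 (3, 3, 1 and 2 peaks) and in the S100 cluster (2, 6, 4 and 2 peaks). From the fused-type S100 genes to LOR each list had 0 peaks, and the untreated H2009 lists had 0 from the LCE genes to LOR. The 4 lists were short, and differences between these 4 libraries were not tested.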
